A study of Sus scrofa with 13 samples.

Results

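Cytokines, chemokines and their receptors were followed in pig muscle with and without dystrophin. The members were all genes whose symbol starts with CCL, CXCL, CCR or CXCR and a digit, with IL and a digit, or with TNFSF or TNFRSF. Of 10412 genes named on the arrays 92 met this rule, and 52 of them are ligands and 38 receptors. The other 2 are IL18BP, a soluble protein that binds interleukin 18, and IL4I1, a secreted enzyme, which were put in neither class. Where several probe sets carried 1 gene, the one with the highest mean level on the 13 arrays stood for it.

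The muscle was biceps femoris of German Landrace pigs. At 2 days of age there were 4 arrays of dystrophin knockouts, written DMD KO, beside 3 of wild-type pigs, written WT. At 3 months each genotype had 3 arrays. DMD KO animals lacked exon 52 of the dystrophin gene and came from nuclear transfer with kidney cells modified with an altered bacterial artificial chromosome. Their muscle was sampled straight after they died, whereas WT animals were killed at a like age, so genotype, nuclear transfer and manner of death cannot be told apart. The labels used here do not give the sex of the animals.

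Chemokines are small secreted proteins that guide leukocytes along a gradient, and CCR and CXCR genes encode the G protein-coupled receptors that read it. Interleukins carry signals among immune cells and from damaged tissue to them, through receptors that act on JAK and STAT proteins or, for the interleukin 1 family, on MYD88, IRAK kinases and NF-kappaB. The TNF superfamily pairs ligands (TNFSF) with receptors (TNFRSF) that steer the survival and activation of cells. Muscle that lacks dystrophin is known for repeated fibre damage with invasion by macrophages and other leukocytes, and CCL2 is a main signal that draws monocytes into damaged muscle in mice.

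The values are log2 levels of array signal, with the log base inferred from their range of 2.81 to 13.8. The arrays had medians between 7.32 and 7.38. WT replicate 3 at 2 days stood apart, with a mean correlation of 0.918 to the other arrays across probe sets, against 0.943 to 0.964 for the rest. Of the 9 muscle markers listed, ACTA1, MYH1 and MYH7 were measured, and their mean level lay between 11.3 and 12.3 on every array. That mean hides opposite differences of DMD KO minus WT at 2 days, at -0.91 for MYH1 and 1.67 for MYH7. The limma test described below gave adjusted p = 0.00615 and 0.00816 for these, and 0.998 for ACTA1. At 3 months none of the 3 passed it (adjusted p from 0.0621 to 0.997). Many members were dim. The mean level of 23 of the 52 ligands and 8 of the 38 receptors lay below 6.60, the lower quartile over all probe sets, and no fold is given where the lower group was below it. Of the 92 members 44 had exactly the same value on at least 2 arrays (47.8%, against 32.5% of all probe sets), and whether such repeats narrow the spread of a gene was not tested.

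Each comparison came from 1 limma fit over all 21893 probe sets and all 4 groups, and a gene is called at a Benjamini-Hochberg adjusted p under 0.05 over all probe sets. SE stands for limma's moderated standard error. The series text calls the samples biological replicates. In whole muscle, fewer cells of a type and less RNA per cell cannot be told apart.

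Most members did not pass the test in any comparison. A total of 15 members were called at least once and 77 never. At 2 days 5 of 92 members were called between genotypes (5.43%, against 9.93% of all probe sets), with 3 ligands lower and 2 receptors higher in DMD KO. Of all probe sets 7.09% were called higher and 2.85% lower at this age. At 3 months 6 were called (6.52%, against 5.98%), and all of these, 2 ligands and 4 receptors, were higher in DMD KO. Of all probe sets 4.62% were called higher and 1.36% lower at this age. Over the 10412 named genes, each held by 1 probe set like the members, 11.4% were called at 2 days and 7.37% at 3 months. The share of members was below this at both ages. The count at 2 days was 3, 2, 3 and 2 without DMD KO replicates 1 to 4 in turn, 8 without WT replicate 2 and 2 without WT replicate 3. At 3 months it lay between 4 and 7 whichever array was left out.

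As classes, ligands and receptors hardly shifted. The median log2 difference of DMD KO minus WT at 2 days was -0.02 over ligands and -0.05 over receptors, beside -0.02 over all probe sets. At 3 months it was -0.05 over ligands and -0.04 over receptors, beside -0.05 over all probe sets. The mean level of the 52 ligands was 6.80, 6.91 and 6.74 on the 3 DMD KO arrays at 3 months, against 6.73, 6.77 and 6.62 on the WT arrays. For the 38 receptors it was 7.37, 7.35 and 7.32 on the DMD KO arrays, against 7.30, 7.28 and 7.25 on the WT arrays. The receptor means did not overlap between genotypes at this age and the ligand means did. The median level over the receptors did overlap, at 7.207 to 7.299 on the DMD KO arrays, against 7.277 to 7.325 on the WT arrays. At 2 days the receptor means lay the other way, at 7.260 to 7.302 in DMD KO, against 7.304 to 7.346 in WT, and the nearest arrays of the genotypes almost met. Between genotypes 84 of the 92 members differed by less than 0.5 at 2 days and 79 at 3 months. The quartiles of the difference at 2 days were -0.16 and 0.11 over members, beside -0.17 and 0.20 over all probe sets. At 3 months they were -0.13 and 0.11, beside -0.16 and 0.15. Most differences were thus small over the whole array as well as in this family.

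**Figure D1:**
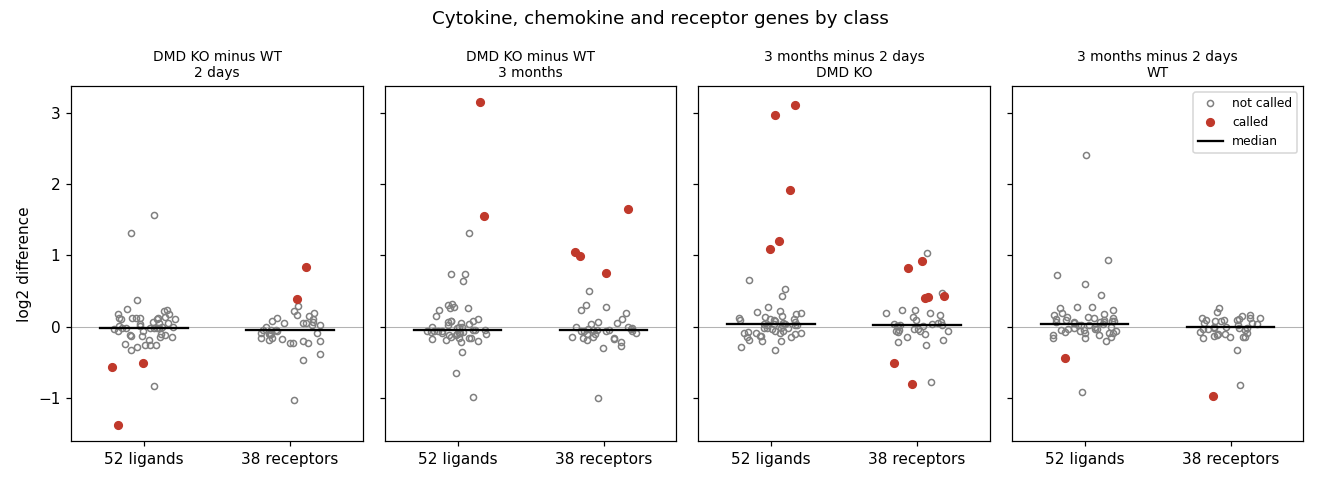
Log2 difference (vertical axis) of each ligand and receptor in 4 comparisons, with called genes filled in red, other genes as open circles and a bar at the median of each class. The medians lie close to 0 in every panel, and at 3 months the called genes are all above it, with IL18 highest at 3.15.

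At 2 days the called ligands were 3 chemokines, all lower in DMD KO. CCL2 (probe set 15212667), the monocyte attractant MCP-1, had log2 levels of 5.80, 6.72, 6.51 and 6.78 in the 4 DMD KO animals, against 7.55, 7.80 and 8.16 in the 3 WT animals. The groups did not overlap, and the difference was -1.39 ± 0.36 (SE, adjusted p = 0.0307). The DMD KO mean of 6.45 is below the lower quartile, so no fold is given. The call ended without DMD KO replicate 1, 2 or 3 or WT replicate 3, with adjusted p from 0.0511 to 0.115. Groups that did not overlap were found for 15 of the 92 members at this age (24.6% of all probe sets) and for 19 at 3 months (23% of all probe sets).

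CXCL14 (probe set 15266801), a chemokine made by epithelia and stromal cells, was at 7.31, 7.26, 7.53 and 7.27 in DMD KO, against 7.60, 8.07 and 8.05 in WT at 2 days. It was 1.48-fold lower in DMD KO, at -0.57 ± 0.15 (SE, adjusted p = 0.0372), with WT replicate 1 close to the highest DMD KO animal. The call ended without DMD KO replicate 1, 2 or 4 or WT replicate 2 or 3 (adjusted p from 0.0715 to 0.136), and in a fit on these groups alone (adjusted p = 0.0533). CCL21 (probe set 15200567), a ligand of CCR7 made by lymphatic vessels and lymphoid stroma, was at 7.59, 7.83, 7.78 and 7.66 in DMD KO, against 8.28, 8.18 and 8.23 in WT. The WT animals lay close together and clear of DMD KO, and the difference of -0.52 ± 0.09 (SE, adjusted p = 0.00549) was called whichever array was left out. Its receptor CCR7 differed by 0.11 (adjusted p = 0.43).

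Fibroblast markers were lower in DMD KO at the same age. Of 5 measured markers COL1A1, COL1A2, DCN and LUM fell, and the mean level of the 5 ranged from 9.74 to 10.03 in DMD KO, against 11.00 to 11.15 in WT. Their part in the lower CCL2, CXCL14 and CCL21 was not tested. The macrophage list had a mean level of 7.12 to 7.20 in DMD KO and 6.78 to 6.98 in WT at 2 days, with none of its 6 measured genes passing limma (adjusted p from 0.0986 to 0.82).

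**Figure D2:**
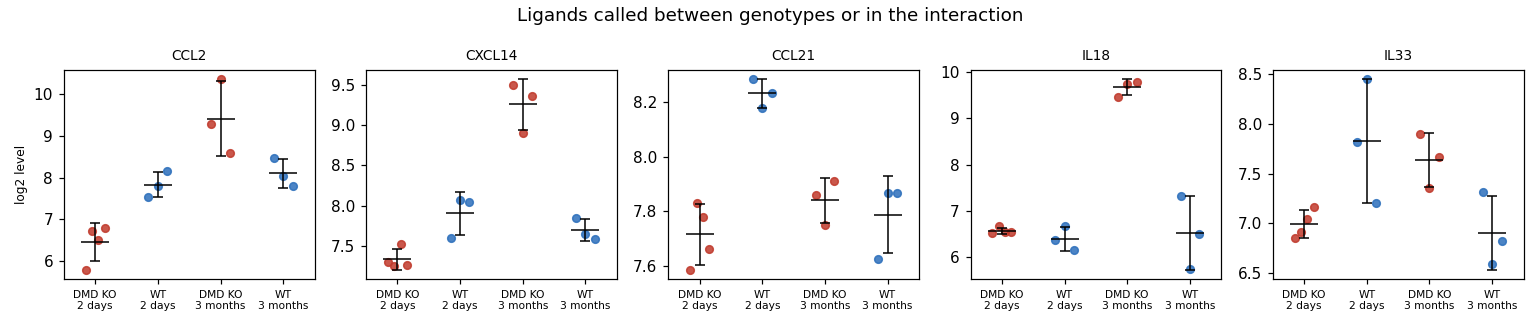
Log2 level (vertical axis) of 5 ligands on each array, by group, with the group mean and SD as bars. CCL2 and CXCL14 lie lowest in newborn DMD KO and highest in DMD KO at 3 months, and IL18 lies between 5.74 and 7.33 in 3 groups and from 9.47 to 9.80 in DMD KO at 3 months.

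The receptors called at 2 days were IL13RA1 and CXCR6, both higher in DMD KO. IL13RA1 (probe set 15337955) encodes a chain of the receptor for interleukins 4 and 13. Its log2 levels were 11.49, 11.41, 11.24 and 11.70 in DMD KO, against 10.91, 10.77 and 10.20 in WT, with no overlap. It was 1.78-fold higher, at 0.83 ± 0.19 (SE, adjusted p = 0.0161), and the call ended without DMD KO replicate 4 or WT replicate 3 (adjusted p from 0.053 to 0.0607).

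CXCR6 (probe set 15215166), the receptor for CXCL16 on T and NK cells, was at 7.17, 7.25, 7.30 and 7.16 in DMD KO, against 6.74, 6.87 and 6.87 in WT. The rise was small, at 0.39 ± 0.10 (SE, adjusted p = 0.0283), and ended as a call without DMD KO replicate 2, 3 or 4 or WT replicate 1 or 3 (adjusted p from 0.0552 to 0.0818). On 3 of the 13 arrays CXCR6 had exactly the same value. Of 8 measured T and NK cell genes none passed limma at 2 days (adjusted p from 0.326 to 0.989), and the list had a mean level of 6.35 to 6.50 in DMD KO, against 6.49 to 6.66 in WT. The part of such cells in CXCR6 was not tested.

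At 3 months the ligand with the largest difference was IL18 (probe set 15330269), an interleukin 1 family cytokine that macrophages and other cells store as a precursor and release after cleavage by caspase-1. Its log2 levels were 9.47, 9.75 and 9.80 in the 3 DMD KO animals, against 7.33, 5.74 and 6.51 in the 3 WT animals. The DMD KO animals stood close together and far above WT, whose values were spread. The difference was 3.15 ± 0.29 (SE, 95% interval 2.52 to 3.77, adjusted p = 5.23e-05), and the WT mean of 6.53 allows no fold. At 2 days the same gene differed by 0.17 (adjusted p = 0.706).

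CXCL14 reversed, with 9.50, 8.90 and 9.36 in DMD KO, against 7.85, 7.66 and 7.59 in WT at 3 months. It was 2.94-fold higher in DMD KO, at 1.56 ± 0.16 (SE, adjusted p = 0.000149). IL18 and CXCL14 stayed called at 3 months under every alternative that was run. CCL2 was at 9.30, 10.37 and 8.59 in DMD KO, against 8.49, 8.03 and 7.80 in WT. These groups did not overlap, yet CCL2 missed the threshold at 1.31 ± 0.38 (SE, adjusted p = 0.0677), with a wide spread in DMD KO. CCL2 passed without DMD KO replicate 3 (1.73, adjusted p = 0.0211 by limma). With other arrays left out its adjusted p reached 0.225 and its difference fell as low as 0.84. CXCL16, the membrane-bound ligand of CXCR6, was at 8.65, 8.88 and 8.95 in DMD KO, against 8.21, 8.59 and 7.46 in WT (0.74 ± 0.23, SE, adjusted p = 0.082). It passed without WT replicate 2 (0.99, adjusted p = 0.0203 by limma). With other arrays left out its adjusted p reached 0.261 and its difference fell as low as 0.43.

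The 4 receptors that rose at 3 months were IL1R1, IL1RL1, IL18R1 and IL13RA1. IL1R1 (probe set 15275429), the signalling receptor for interleukin 1, was at 9.03, 8.56 and 9.56 in DMD KO, against 7.84, 7.07 and 7.28 in WT, and 3.14-fold higher (1.65 ± 0.33, SE, adjusted p = 0.01). The groups did not overlap, and the call ended without DMD KO replicate 3 or WT replicate 2 (adjusted p from 0.0504 to 0.0531). IL1RL1 (probe set 15275415), the receptor ST2 for interleukin 33, was at 6.77, 6.33 and 6.002 in DMD KO, against 5.14, 5.41 and 5.42 in WT. Its difference of 1.04 ± 0.16 (SE, adjusted p = 0.00203) was called whichever array was left out.

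IL18R1 (probe set 15275411), the chain that binds interleukin 18, was at 4.78, 4.66 and 5.48 in DMD KO, against 4.20, 4.17 and 4.29 in WT. The difference was 0.75 ± 0.18 (SE, adjusted p = 0.0306). These are among the dimmest values of the table, with a mean over all arrays at percentile 3.54 of all probe sets, and DMD KO replicate 3 stood above the rest. The call ended without DMD KO replicate 3 or any WT animal (adjusted p from 0.0631 to 0.102) and in a fit on the groups at 3 months alone (adjusted p = 0.102). IL1RL1, at percentile 10.53, was dim as well.

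IL1R1, IL1RL1 and IL18R1 are neighbours in the pig genome. In the RefSeq genes of Sscrofa11.1 IL18R1 and IL1RL1 are adjacent, and 1 other gene lies between IL1RL1 and IL1R1. They are the members measured at this cluster, and all 3 were called higher at 3 months, while at 2 days they differed by 0.28, 0.16 and -0.21 with none called by limma (adjusted p = 0.57, 0.507 and 0.449). The ligands of these receptors did not move together. IL33, a nuclear protein that damaged cells release as an alarm signal, differed by 0.73 ± 0.27 (SE, adjusted p = 0.152) at 3 months. IL1A, a ligand of IL1R1, differed by 0.11 (adjusted p = 0.63), and IL1B2, a pig gene for interleukin 1 beta that may share probe signal with its near copy IL1B, by -0.21 (adjusted p = 0.79). IL18BP, the binding protein that blocks interleukin 18, differed by -0.16 (adjusted p = 0.467).

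IL13RA1 was at 10.69, 10.47 and 10.79 in DMD KO, against 10.02, 9.53 and 9.41 in WT at 3 months, and 1.99-fold higher (0.99 ± 0.20, SE, adjusted p = 0.0106). The call ended without DMD KO replicate 3 or WT replicate 3 (adjusted p from 0.0531 to 0.0562). It was the 1 member called in the same direction at both ages, and its genotype differences at the ages were close to each other (interaction 0.16, adjusted p = 0.877, 95% interval -0.43 to 0.76). The decoy receptor IL13RA2, which binds interleukin 13, had lower values in DMD KO without passing. The difference was -1.04 ± 0.37 at 2 days (SE, adjusted p = 0.094), and at 3 months its 95% interval was -1.86 to -0.15 (adjusted p = 0.182). Its levels were 6.87, 6.57, 6.57 and 6.19 in DMD KO, against 7.38, 8.31 and 7.07 in WT at 2 days, and 5.83, 5.57 and 5.90 in DMD KO, against 7.83, 6.25 and 6.24 in WT at 3 months. IL4R, the partner chain of IL13RA1, differed by -0.10 and -0.01 at the 2 ages.

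IL13RA1, IL13RA2 and IL2RG are the members placed on the X chromosome in Sscrofa11.1. CXCR3 could not be placed, since its gene number was not in the RefSeq table. It differed by 0.22 at 2 days and -0.06 at 3 months and was called at neither age. IL2RG, the chain shared by several interleukin receptors, differed by -0.17 at 2 days and 0.27 at 3 months. The part of sex in the values of these genes was not tested.

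**Figure D3:**
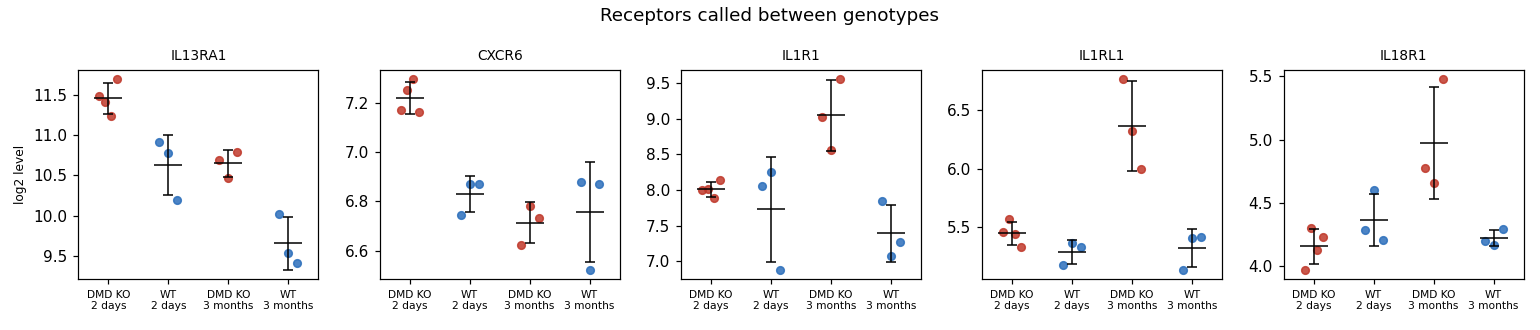
Log2 level (vertical axis) of 5 receptors on each array, by group, with the group mean and SD as bars. IL13RA1 is higher in DMD KO than in WT at both ages, CXCR6 at 2 days, and IL1R1, IL1RL1 and IL18R1 at 3 months.

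Macrophage markers were higher in DMD KO at 3 months. Of 6 measured genes AIF1, LYZ, MRC1 and MSR1 rose, by 0.72, 3.54, 2.28 and 3.10, and the mean level of the list ranged from 8.10 to 8.87 in DMD KO, against 6.71 to 7.04 in WT. CSF1R and MARCO differed by -0.04 and -0.12. Of 3 measured mast cell genes MS4A2, a chain of the IgE receptor, rose by 0.96 (adjusted p = 0.0044), while KIT and HDC differed by -0.45 (adjusted p = 0.117) and 0.01. Fibroblast markers COL1A2, DCN and LUM rose, and the list ranged from 10.89 to 11.00 in DMD KO, against 10.19 to 10.56 in WT. COL1A1 and DPT differed by 0.44 and 0.12 without passing limma (adjusted p = 0.238 and 0.677). The part of macrophages, fibroblasts and mast cells in IL18, CXCL14 and the interleukin 1 family receptors was not tested. Of 8 T and NK cell genes none passed limma at 3 months (adjusted p from 0.0536 to 0.805), nor did any of 4 B cell genes or 3 neutrophil genes (adjusted p from 0.322 to 0.741).

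The difference in the genotype effect between ages was tested directly as an interaction. Of 92 members 7 were called (7.61%, against 5.05% of all probe sets), 5 ligands and 2 receptors, and in each the genotype difference was higher at 3 months than at 2 days. Over all probe sets 3.06% were called in that direction and 1.99% in the other. Over the 10412 named genes 6.12% were called in either direction. CCL2 (2.70 ± 0.52, SE, adjusted p = 0.0103), CXCL14 (2.12 ± 0.23, SE, adjusted p = 0.000229) and IL18 (2.98 ± 0.39, SE, adjusted p = 0.00103) stayed called whichever array was left out. In CXCL14 and CCL2 the sign itself differed between ages, though the CCL2 difference at 3 months did not pass. The count was 4 without any 1 of DMD KO replicates 1 to 4 or WT replicate 1 at 2 days, DMD KO replicate 1 at 3 months and WT replicates 1 and 3 at 3 months.

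IL33 (probe set 15197247) was called in the interaction alone, at 1.57 ± 0.37 (SE, adjusted p = 0.0277). Its log2 levels were 6.85, 6.91, 7.04 and 7.17 in DMD KO, against 7.82, 8.45 and 7.21 in WT at 2 days, and 7.89, 7.35 and 7.67 in DMD KO, against 7.32, 6.59 and 6.82 in WT at 3 months. The difference at 2 days was -0.83 ± 0.25 (SE, adjusted p = 0.0547) and passed without WT replicate 3 (-1.14, adjusted p = 0.0119 by limma). With other arrays left out its adjusted p reached 0.125 and its size shrank to as little as -0.52. The interaction call ended without DMD KO replicate 1, 2 or 3 or WT replicate 1 at 2 days, or without DMD KO replicate 1 or 3 or WT replicate 2 or 3 at 3 months (adjusted p from 0.0501 to 0.0717).

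CCL21 (0.57 ± 0.14, SE, adjusted p = 0.0298), IL1RL1 (0.88 ± 0.22, SE, adjusted p = 0.0376) and IL18R1 (0.96 ± 0.25, SE, adjusted p = 0.048) were called near the threshold. For CCL21 the call ended without DMD KO replicate 1 or 4 or WT replicate 1 at 2 days, or DMD KO replicate 1 or 3 or WT replicate 1 at 3 months (adjusted p from 0.0603 to 0.0696). For IL1RL1 it ended without any array other than WT replicate 1 at 2 days and DMD KO replicate 3 at 3 months (adjusted p from 0.052 to 0.0838). For IL18R1 it ended without any array other than WT replicate 3 at 2 days and DMD KO replicates 2 and 3 at 3 months (adjusted p from 0.0523 to 0.101). IL1R1 did not pass (1.37 ± 0.45, SE, adjusted p = 0.119).

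Between 2 days and 3 months 12 of 92 members changed in DMD KO (13.0%, against 8.04% of all probe sets) and 2 in WT (2.17%, against 2.89%). In DMD KO 5 ligands and 5 receptors rose and 2 receptors fell. In WT 1 ligand and 1 receptor fell. Of all probe sets 4.47% were called higher and 3.57% lower with age in DMD KO, and 1.71% higher and 1.18% lower in WT. Over the 10412 named genes 9.83% were called with age in DMD KO and 3.29% in WT. Values of the ages did not overlap for 18 members in DMD KO (20.8% of all probe sets) and for 10 in WT (13.3%). The DMD KO count lay between 9 and 13 whichever array was left out. The WT count was 0 without WT replicate 1 or 2 at 2 days or replicate 2 at 3 months, 1 without WT replicate 3 at 3 months, and 0 in a fit on the WT animals alone. In WT 7 of 92 members had an unadjusted p under 0.05, as did 12.9% of all probe sets. Both age comparisons share DMD KO or WT arrays with the genotype comparisons, so their values are given side by side and not as separate evidence.

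The largest rises with age in DMD KO were those of IL18 (3.11 ± 0.27, SE, adjusted p = 2.63e-05) and CCL2 (2.97 ± 0.36, SE, adjusted p = 0.000243), followed by CXCL14 at 3.77-fold. In WT these genes differed by 0.13, 0.27 and -0.21 and none was called by limma (adjusted p = 0.934, 0.893 and 0.735). CXCL12 (probe set 15227325), the stromal chemokine that holds stem and immune cells in place, had means of 8.27 ± 0.24 at 3 months and 7.07 ± 0.05 at 2 days in DMD KO (SD, n = 3 and 4). It was 2.29-fold higher at the later age (adjusted p = 0.000247 by limma). In WT it was at 8.31, 7.91 and 7.78 at 3 months, against 7.51, 7.53 and 7.15 at 2 days. That difference of 0.60 ± 0.15 missed the threshold (SE, adjusted p = 0.0611 by limma). CXCL12 thus lay higher at the later age in both genotypes, with no overlap between ages in either, and the interaction was not called (0.59, adjusted p = 0.155). CXCL16 was 2.12-fold higher at 3 months in DMD KO (1.08 ± 0.21, SE, adjusted p = 0.00607). Its difference in WT was 0.44 ± 0.23 (SE, adjusted p = 0.463 by limma), and its interaction was not called.

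Receptors that rose with age in DMD KO were IL1RL1 (0.92), IL18R1 (0.81), IL2RG (0.43), IL17RD (0.41), a regulator of interleukin 17 and growth factor signalling, and IL10RA (0.40), the binding chain of the receptor for interleukin 10. The IL2RG call held without each array in turn. The call of IL17RD ended without DMD KO replicate 1, 2 or 4 at 2 days or any DMD KO animal at 3 months (adjusted p from 0.062 to 0.181). That of IL10RA ended without DMD KO replicate 1, 2 or 4 at 2 days or 1 or 2 at 3 months (adjusted p from 0.0789 to 0.128). IL1R1 lay 1.03 higher without passing (adjusted p = 0.0619). Of 8 measured T and NK cell genes CD2, CD3G and NKG7 rose with age in DMD KO, by 1.45, 1.33 and 0.57. The other 5 differed by -0.08 to 0.07, and the median of the 8 was 0.06. CD2 rose in WT too, by 1.78 (adjusted p = 0.0435). In DMD KO the list had a mean level of 6.75 to 6.93 at 3 months, against 6.35 to 6.50 at 2 days. In WT it was 6.58 to 7.01 at 3 months, against 6.49 to 6.66 at 2 days, so the genotypes overlapped at 3 months. The part of such cells in IL2RG and IL10RA was not tested.

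IL13RA1 fell with age in both genotypes, by 0.81 in DMD KO and by 0.97 in WT. The call ended in DMD KO without replicate 4 at 2 days or replicate 1 or 2 at 3 months (adjusted p from 0.0501 to 0.0877), and in WT without replicate 1 or 2 at 2 days or replicate 2 or 3 at 3 months (adjusted p from 0.0637 to 0.0929). CXCR6 fell by 0.51 in DMD KO (adjusted p = 0.00611), and its level at 3 months, 6.62, 6.78 and 6.73, was near that of WT (6.88, 6.52 and 6.87). CCL21 fell by 0.44 in WT (adjusted p = 0.0326), a call that ended without any 1 of the 6 WT animals (adjusted p from 0.0528 to 0.107). In DMD KO it differed by 0.13 (adjusted p = 0.615).

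**Figure D4:**
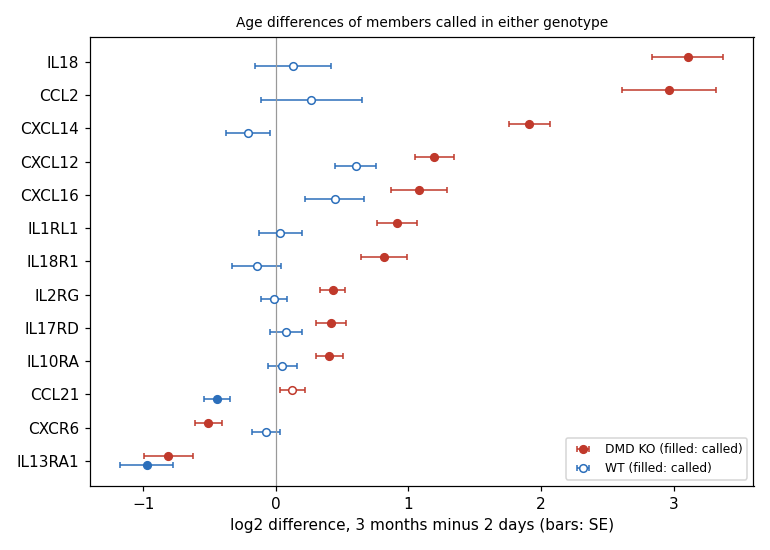
Log2 difference of 3 months minus 2 days (horizontal axis, bars are SE) for the 13 members called in either genotype, with DMD KO in red and WT in blue and filled points for calls. IL18, CCL2 and CXCL14 are far to the right in DMD KO and near 0 in WT, and IL13RA1 is to the left in both.

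None of the 5 CXC chemokines of acute inflammation that are plotted was called between genotypes by limma, and CXCL10 had the largest SD of the 5 in every group but DMD KO at 3 months, where CXCL2 had it. CXCL10 (probe set 15323380), an interferon-induced attractant of T cells, was at 5.37, 8.30, 5.41 and 9.09 in DMD KO, against 5.28, 4.95 and 6.21 in WT at 2 days. At 3 months it was at 6.49, 7.79 and 6.44 in DMD KO, against 8.19, 9.82 and 5.66 in WT. DMD KO replicates 2 and 4 at 2 days and WT replicates 1 and 2 at 3 months were high, and the groups overlapped at both ages. The differences of 1.56 (95% interval -0.65 to 3.77) and -0.98 (95% interval -3.35 to 1.38) were not called (adjusted p = 0.332 and 0.639). Nor was its age difference in WT (2.41 ± 1.09, SE, adjusted p = 0.372).

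CXCL9, another interferon-induced chemokine, was at 7.16 in WT replicate 1 at 3 months and between 4.64 and 5.31 on the other 12 arrays. CXCL2 (probe set 15320856), an attractant of neutrophils, was at 6.59, 7.08, 7.70 and 7.79 in DMD KO, against 6.37, 6.07 and 5.48 in WT at 2 days. These values did not overlap, but the difference of 1.32 ± 0.56 was not called (SE, adjusted p = 0.15), and the other 3 probe sets that carry this symbol differed by 0.01, 0.10 and 0.10 and belong to another gene number. CXCL8, also a neutrophil attractant, and its receptor CXCR2 differed by at most 0.12 in size between genotypes at either age.

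**Figure D5:**
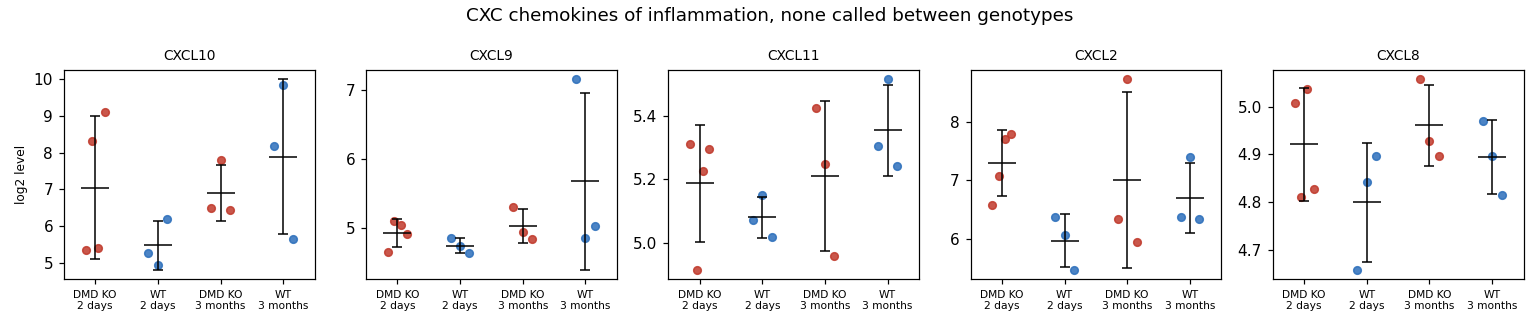
Log2 level (vertical axis) of 5 CXC chemokines on each array, by group, with the group mean and SD as bars. CXCL10 spans from 4.95 to 9.82 with high animals in both genotypes, and CXCL11 and CXCL8 stay within a narrow, dim range.

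Ligand and receptor pairs were fixed as a list of 79 genes, of which 49 were measured. The pair called higher on both sides at 3 months was IL18 with IL18R1. IL18R1 was very dim, and its call ended in the limma fit on the groups at 3 months alone (adjusted p = 0.102). IL18RAP, listed with this pair, was not measured, nor was CCR2, the listed receptor of CCL2. For CXCL12 and its receptor CXCR4 the genotype differences at 3 months were 0.27 (adjusted p = 0.381) and 0.50 (adjusted p = 0.113). CXCR4 was at 7.75, 8.58 and 8.30 in DMD KO, against 7.85, 7.52 and 7.78 in WT. It passed without DMD KO replicate 1 (0.73, adjusted p = 0.00539 by limma). With other arrays left out its adjusted p reached 0.354 and its difference fell as low as 0.31. Of CXCL16 and CXCR6, the receptor was called higher in DMD KO than in WT at 2 days. The ligand was called with age in DMD KO, a different comparison, and not between genotypes. For IL6, a cytokine that contracting and damaged muscle makes, the differences were 0.00 and 0.28, and for IL6ST, its signal-transducing receptor chain gp130, 0.07 and 0.06 at 2 days and 3 months. IL7 and IL7R, IL17A with the receptors IL17RA and IL17RC, CCL25 and CCR9, and CCL28 and CCR10 were not called in any comparison. IL17RB was not called either, while IL17RD, also on the list, was called higher with age in DMD KO.

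No gene of the TNF superfamily was called by limma. Of 5 TNFSF ligands 2 had an unadjusted p under 0.05 between genotypes at 2 days and 2 at 3 months. Of 9 TNFRSF receptors 2 did so at 2 days and 0 at 3 months. Over all probe sets the share at that p was 27.9% at 2 days and 19% at 3 months. TNFRSF8, the receptor CD30 of activated lymphocytes, had the largest difference among the receptors of this family at 2 days, at -0.47 ± 0.16 (SE, adjusted p = 0.0762), with 7.31, 7.12, 7.04 and 6.90 in DMD KO, against 7.40, 7.37 and 7.92 in WT. At 3 months TNFRSF8 differed by -0.31 (adjusted p = 0.347). IL21R, the receptor for interleukin 21, differed by -0.38 at 2 days without passing (adjusted p = 0.145). TNFRSF1A, the widely expressed receptor for TNF, differed by 0.02 and 0.04 at the 2 ages. TNFSF11, the ligand RANKL, its receptor TNFRSF11A and its decoy TNFRSF11B differed by 0.12, -0.06 and -0.23 at 2 days and by -0.08, -0.16 and -0.05 at 3 months. A second, dimmer probe set of TNFRSF11B differed by 0.40 at 3 months (adjusted p = 0.381), so its probe sets do not point the same way.

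Cytokines and receptors outside the naming rule were counted from a list of 46, of which 28 were measured. At 2 days 1 of them was called between genotypes, and it was higher in DMD KO (3.57% of the list, against 9.93% of all probe sets). At 3 months 3 were called, of which 2 were higher (10.7%, against 5.98%). SPP1 (osteopontin), a secreted protein of matrix and inflammation, was higher at both ages, by 2.58 and 3.00. OSMR, the receptor for oncostatin M and a partner of IL6ST, was at 7.86, 7.71 and 7.98 in DMD KO, against 6.60, 6.64 and 6.52 in WT at 3 months, a rise of 1.26 ± 0.14 (SE, adjusted p = 0.000198). CNTFR, the receptor for ciliary neurotrophic factor, was lower at 3 months by a difference of -0.55 (adjusted p = 0.0271). The median of the list was -0.07 at 2 days and -0.08 at 3 months.

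Of 46 signal transduction genes 33 were measured, and 3 were called at each age, all higher in DMD KO. This is 9.09% of the list, against 9.93% of all probe sets called at 2 days and 5.98% at 3 months. Of all probe sets 7.09% were called higher at 2 days and 4.62% at 3 months. At 2 days the called genes of the list were JAK1 (1.09), a kinase of many cytokine receptors, TRAF6 (0.79), an adaptor of interleukin 1 and Toll-like receptors, and NFKB1 (0.65), a subunit of NF-kappaB. At 3 months they were IRAK4 (1.12) and MYD88 (0.48), the kinase and adaptor that act directly below receptors of the interleukin 1 family, and STAT3 (0.56), a transcription factor used by IL6ST. IRAK4 was at 8.30, 7.85 and 8.71 in DMD KO, against 7.53, 7.10 and 6.90 in WT. The median of this list was 0.14 at 2 days and 0.04 at 3 months.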

How the data were processed

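Biceps femoris RNA was extracted with Trizol, labelled with biotin and measured on 13 arrays, per the labels' protocols. Affymetrix Power Tools made the deposited log2 values, as the submitters' processing notes record. Its version, summary method and normalization were not given in the sources used here. Arrays give no counts, so their number limits the precision.

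Values were used as deposited. Symbols came from the platform annotation: 11171 probe sets carried 1 distinct symbol, 275 several and 10447 none. Probe sets shared by CCR1 with XCR1 and by IL1B with IL1B2 were left out. RefSeq's current table held the gene numbers of 91 of the 92 members. limma 3.58.1 in R 4.3.3 (lmFit, eBayes, two-sided, 4 groups in 1 fit) gave the genotype, age and interaction contrasts, and was tested on simulated data.

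Named with all values were members called between genotypes or in the interaction. Members called with age alone, the 3 ligands and 3 receptors with the largest other genotype differences, and fixed pairs got values in brief. Other genes named were picked for their role after values were seen. Members and lists were chosen with earlier results of these data known. Alternatives were fits on fewer groups, trend and robust eBayes, quantile normalization, median centring, a filter below the 25th percentile of mean level, the mean over probe sets, the replicate number as a block, and each array left out. Replicate numbers were not used to pair the animals in the main fit. Deviations of same-numbered arrays correlated between -0.495 and 0.33, which with 3 or 4 arrays per group cannot exclude a pairing.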

Additional observations from a re-analysis of the deposited data

Results flagged for a closer look

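The interaction of genotype with age was called in 7 members, at a log2 difference (later age minus earlier) of 2.98 for IL18, 2.70 for CCL2, 2.12 for CXCL14, 1.57 for IL33, 0.96 for IL18R1, 0.88 for IL1RL1 and 0.57 for CCL21.

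Single arrays stood apart from the other 3 DMD KO animals at 2 days in 3 of 21 named members checked, and chance gives such a gap in about 1 of 20 groups. For IL18 the gap of replicate 2 (6.66) to the nearest animal was 0.85 of the range of the group, on a range of 6.52 to 6.66. For IL10RA that of replicate 3 (8.34) was 0.883 of the range. For CXCR4 replicate 2 (7.69) was the odd animal and the share was 1, since the other 3 arrays held the same value, 7.75.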

How the results depend on the processing

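Of 32 calls of a member in a comparison, 15 held under every alternative that was run, 17 were lost under at least 1, and 0 changed sign. The filter on dim probe sets removed IL1RL1 and IL18R1, so they have no value there. All calls that could be tested held with trend and robust settings, with that filter and with the mean over probe sets. Quantile normalization ended IL10RA with age in DMD KO (0.38, adjusted p = 0.0589), and median centring ended IL17RD with age in DMD KO (0.41, adjusted p = 0.0516) and IL18R1 in the interaction (0.94, adjusted p = 0.0637). The count with age in WT was 0 in the fit on WT alone. With the replicate number as a block, 20 of 32 calls held. That fit also left out DMD KO replicate 4 at 2 days. Without that array alone 15 of 24 calls held, so the block and the missing array cannot be told apart. The counts with that block were 2 at 2 days, 1 with age in WT and 3 in the interaction. Only 4 of 13 arrays correlated best with an array of their own number. With arrays left out in turn the counts ranged from 2 to 8 at 2 days, 0 to 2 with age in WT and 4 to 7 in the interaction. In the interaction the median over ligands was -0.03 and became 0.17 with the filter on dim probe sets, which left 29 of the 52 ligands. The median over receptors was 0.04 and ranged from -0.015 to 0.082 with arrays left out. The cause of these shifts was not tested beyond the smaller number of genes or arrays. Signal over background was not analysed here, which limits the dim members, IL18R1 most of all.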
